A study of Homo sapiens with 4 samples.

Results

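Glucose transport and glycolysis genes were followed through 4 RNA libraries of A549, an established human lung adenocarcinoma line. The set was a list of 33 gene symbols (glucose transporters, glycolytic enzymes and their regulators, and genes of lactate formation and export), taken from a table of 26255 genes. All 33 symbols were in the table. HK3 and SLC2A10 stayed below 1 scaled count, the unit explained in the next paragraph, in every library, so ratios are described for the other 31 genes.

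The libraries came from tumor cells cut by laser microdissection from solid-type or acinar-type A549 xenografts in mice, and from GFP-labelled A549 cells sorted out of 3D colonies. An acinar tumor forms gland-like structures, whereas a solid one grows as sheets. The colonies had grown alone (single culture) or with cancer-associated fibroblasts, the fibroblasts of a tumor's stroma (mix culture). The title mix was read as the culture with fibroblasts. Each group is 1 library, so differences cannot be set against a spread between replicates, and no test was made. The sources used here do not say whether both tumor types came from 1 animal, how many tumors were pooled, or the strain and age of the mice. Estimated depth ran from 6632976 to 12184274 fragments. Values are in scaled counts, the deposited signal divided by 8.94 in all libraries, so that 1 fragment is worth between 0.0805 and 0.155. They are not divided by gene length. Intervals printed beside a fold are 95% intervals of counting error only. The 14 epithelial and A549 markers summed to 24559 and 31202 scaled counts in the solid and acinar tumors, and to 19921 and 18169 in the single and mix cultures. Their levels were uneven. KRT18, a keratin of simple epithelia, lay between 1554 and 3119. EPCAM was at 20.3 and 28.1 in the tumors and at 2.31 and 2.09 in the cultures, and GPX2 at 2265, 3235, 221 and 61.1 in the same order. Both tumors were above both cultures for 8 of the 14 and below both for 3, against 39.8% and 38.7% of all genes. UGDH was among the 3, at 173 and 167 in the tumors and at 485 and 448 in the cultures.

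Cells take up glucose through membrane carriers of the GLUT family, encoded by SLC2A genes, and trap it by phosphorylation with a hexokinase. The investment steps make fructose-1,6-bisphosphate, which aldolase splits, and the later steps yield ATP and pyruvate. Lactate dehydrogenase turns pyruvate into lactate, which leaves the cell through monocarboxylate transporters. In tumors this route often runs even with oxygen present, and many of its genes are known targets of the hypoxia-inducible factor HIF-1 and of MYC.

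Of the 31 genes measured, 21 had log2 ratios below 0 and 10 above 0 in the acinar against the solid tumor, and 17 were below and 14 above in the mix against the single culture. Among all genes measured, 6881 were below and 7098 above between the tumors, and 6474 below and 7011 above between the cultures. HK2, the inducible hexokinase, and ALDOC, the aldolase best known from brain, were past 2-fold lower in both the acinar tumor and the mix culture. The fructose-2,6-bisphosphate enzyme gene PFKFB4 was past 1.5-fold lower in both. SLC2A6, which encodes GLUT6, a carrier of intracellular membranes, went the other way between the tumors and was 4.76-fold higher in the acinar one. Summed over the 33 genes, the solid tumor held 26158 scaled counts (2.57% of its library) and the acinar tumor 20392 (1.98%). The single culture held 34810 (3.57%) and the mix culture 33185 (3.38%).

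**Figure D1:**
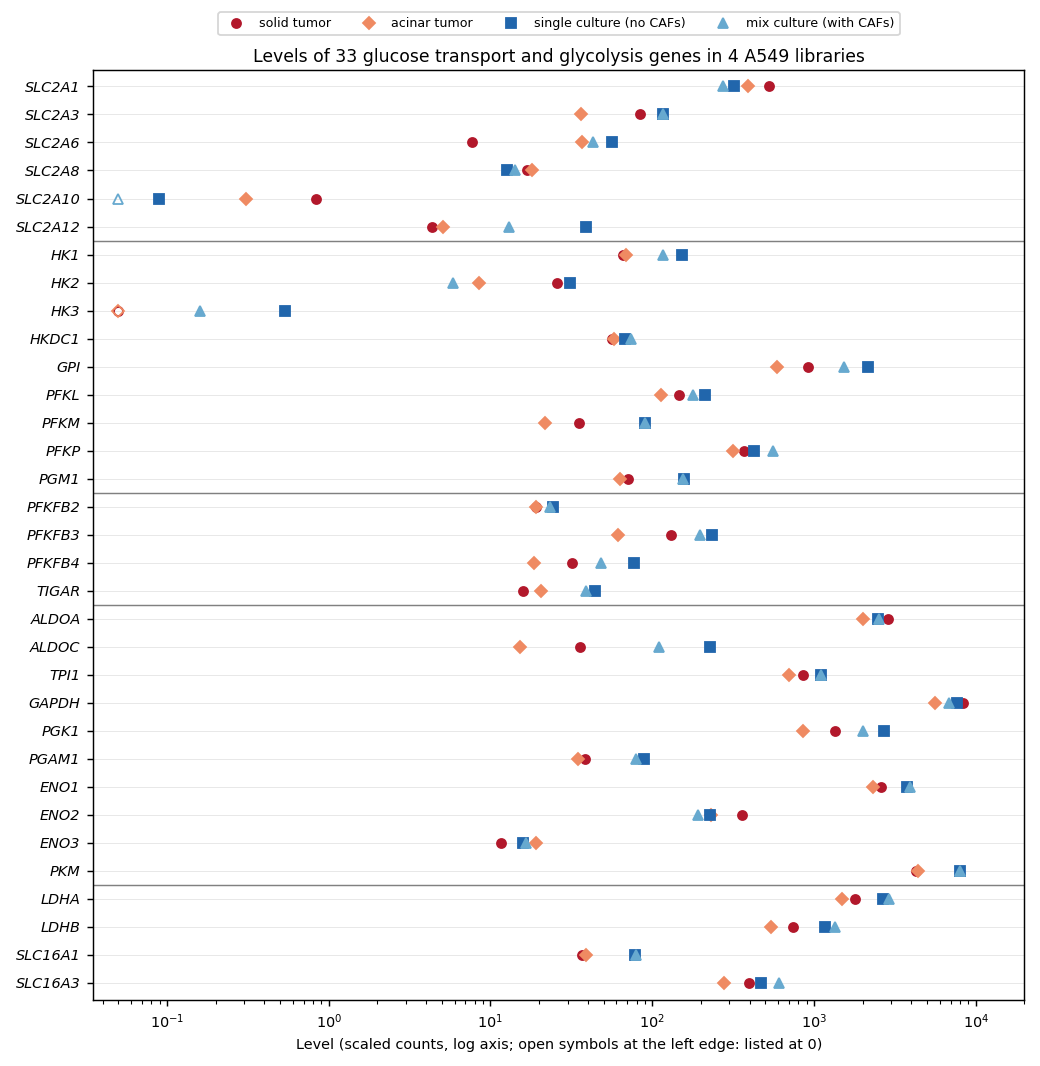
Level of each of the 33 genes (x axis, scaled counts on a log axis) in the solid tumor, acinar tumor, single culture and mix culture, 1 symbol per library. Open symbols at the left edge mark genes listed at 0. Horizontal lines separate transporters, investment steps, fructose-2,6-bisphosphate control, later steps, and lactate genes. HK2 stands at 25.6 and 30.9 in the solid tumor and single culture and at 8.53 and 5.88 in the acinar tumor and mix culture.

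The comparison of acinar with solid tumor cells asks how the same line differs between 2 growth patterns. Of the 31 genes measured, 9 were at or past 1.5-fold lower in the acinar tumor and 2 at or past 1.5-fold higher, on the log2(value + 1) scale. Among all 13979 genes measured, 8.07% were lower and 6.34% higher by that rule. At 2-fold, 4 members were lower and 1 higher, against 2.55% and 1.98% of all genes. HK2 is among the lower members at both thresholds, and its lower value was known when the list was made. The median log2 ratio of the members was -0.29, and that of all genes was 0.01. Counting intervals lay wholly below equality for 19 members, wholly above it for 3 (SLC2A6, ENO3 and PKM), and held it for 9. No such count is given for all genes, so these numbers describe the members only. At a high level a small ratio can exclude equality, as for PKM (1.04-fold higher, 1.02 to 1.05).

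The comparison of mix with single culture asks what growth beside fibroblasts does to the A549 cells. Here 4 of 31 genes were at or past 1.5-fold lower and 0 higher, against 6.83% and 3.31% of the 13485 genes measured. With no replicates there is no unadjusted p to set beside the count of 0. At 2-fold, 3 were lower, against 1.74% of all genes, and 0 were higher, against 0.682%. The median log2 ratio was -0.07 over the members and 0.01 over all genes. Counting intervals lay below equality for 15 genes, above it for 5 (PFKP, ENO1, LDHA, LDHB and SLC16A3), and held it for 10. No such count is given for all genes here either, so these numbers describe the members only. A small ratio at a high level can exclude equality in the cultures too, as for ENO1. PFKM had fractional fragments in the cultures and got no interval there. The 2 comparisons share no library. HK2, ALDOC and PFKFB4 were the 3 members at or past 1.5-fold lower in both, while 1.49% of the 12903 genes measured in both were. At or past 1.5-fold higher in both were 0 members and 0.589% of those genes. The lower HK2 values were known when the list was made, so that gene supports nothing here. It is included in each of these counts of lower members, in either comparison and in both.

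**Figure D2:**
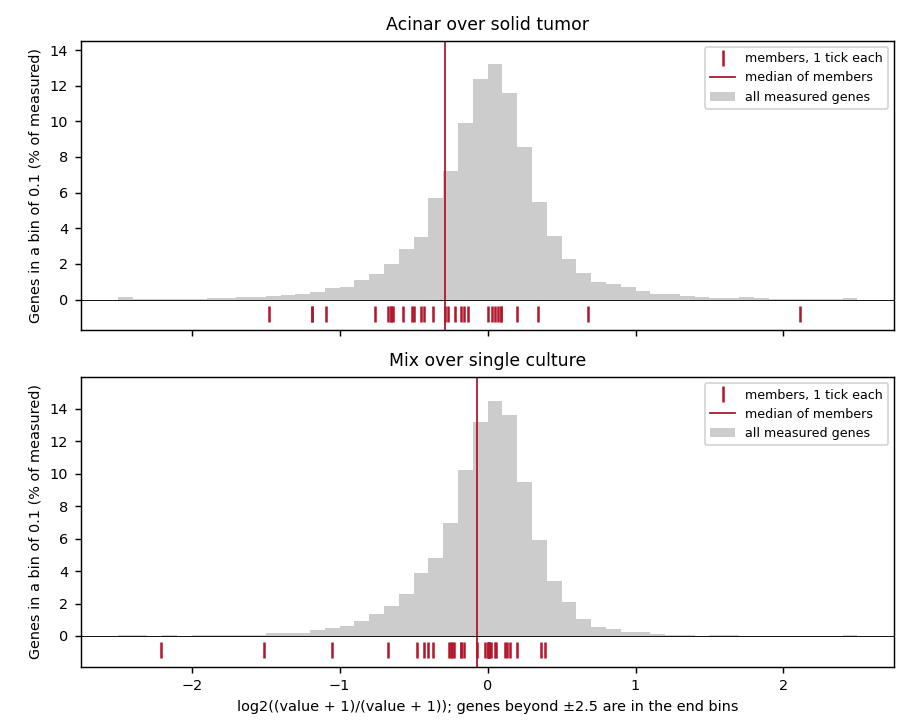
Percent of all measured genes (y axis, gray bars) in bins of the log2 ratio (x axis), for acinar over solid tumor and mix over single culture. Red ticks are the members and the red line is their median, at -0.29 in the upper panel and -0.07 in the lower. SLC2A6 is the tick farthest right in the tumors, at 2.11, and HK2 the one farthest left in the cultures, at -2.21.

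Among the glucose transporters, SLC2A3 and SLC2A6 were past 1.5-fold apart between the tumors, and SLC2A12 between the cultures. SLC2A1, encoding the ubiquitous carrier GLUT1, was at 528 and 392 scaled counts in the solid and acinar tumors, and at 321 and 274 in the single and mix cultures. The solid tumor was highest and the mix culture lowest, and the acinar level was 1.35-fold below the solid one (1.28 to 1.42). SLC2A3, encoding the high-affinity carrier GLUT3, was at 83.8 in the solid and 36.3 in the acinar tumor, a 2.31-fold lower level (1.98 to 2.70). Both cultures held it at 117, so it set the tumors apart but not the cultures.

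SLC2A6 was at 7.69 scaled counts in the solid tumor, from 55 fragments, and at 36.6 in the acinar tumor, from 236 (4.76-fold, 3.53 to 6.50). The single and mix cultures held 56.1 and 43.2, 1.30-fold lower with fibroblasts (1.15 to 1.46). The solid tumor was thus the one low library. SLC2A12, encoding the GLUT12 carrier, was at 38.9 and 13.0 in the single and mix cultures, 2.98-fold lower (2.49 to 3.60). In the tumors it was low in both, at 4.34 and 5.12, with an interval that held equality. SLC2A8, encoding GLUT8, another carrier of intracellular membranes, ranged from 12.6 to 18.1 over the 4 libraries. For SLC2A10 the fragments numbered 6, 2, 1 and 0 in the same order of libraries, and 0 of the mix culture allows up to 0.242 scaled counts (3 fragments).

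The hexokinase genes differed through HK2 alone by the 1.5-fold rule in both comparisons. HK2 was at 25.6 scaled counts in the solid and 8.53 in the acinar tumor (3.00-fold lower, 2.21 to 4.13). In the cultures it was at 30.9 without and 5.88 with fibroblasts (5.26-fold lower, 4.08 to 6.87). The acinar tumor and the mix culture were both below the solid tumor and the single culture. HK1, the hexokinase found in most cells, was at 65.6 and 68.8 in the tumors, with an interval of the fold from 0.920 to 1.20. It was at 153 and 116 in the cultures, 1.32-fold lower with fibroblasts (1.23 to 1.41). HKDC1, a less-studied relative of the hexokinases, ran from 56.4 to 74.2, with intervals that held equality in both comparisons. HK3, the hexokinase of blood cells, had 0 fragments in either tumor, which allows up to 0.420 scaled counts in the solid and 0.465 in the acinar tumor, and had 6 and 2 fragments in the single and mix cultures.

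The other investment-step genes differed by less. GPI, glucose-6-phosphate isomerase, was at 924 in the solid and 587 in the acinar tumor (1.57-fold lower, 1.51 to 1.64), and at 2147 and 1543 in the single and mix cultures (1.39-fold lower, 1.36 to 1.42). PFKP, the platelet-type phosphofructokinase gene, was at 369 and 316 in the tumors and at 427 and 559 in the cultures. It was therefore lower in the acinar tumor but 1.31-fold higher in the mix culture (1.26 to 1.36), the largest higher ratio of any member in the cultures. PFKL, the liver-type gene, was 1.29-fold lower in the acinar tumor (1.17 to 1.42) and 1.19-fold lower in the mix culture (1.13 to 1.27). PFKM, the muscle-type gene, was at 35.2 and 21.7 in the tumors (1.62-fold lower, 1.32 to 2.01), against 89.8 and 90.7 in the cultures. PGM1, which links glycogen to glycolysis, had intervals that held equality in both comparisons.

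Fructose-2,6-bisphosphate is the strongest known activator of phosphofructokinase, made and removed by PFKFB enzymes and removed by TIGAR. PFKFB3, the member that favours synthesis most, was at 131 scaled counts in the solid and 61.2 in the acinar tumor (2.15-fold lower, 1.91 to 2.42). In the cultures it was at 234 and 197, 1.19-fold lower with fibroblasts (1.12 to 1.25). PFKFB4 was at 32.0 and 18.5 in the tumors (1.74-fold lower, 1.38 to 2.18) and at 77.1 and 48.0 in the cultures (1.61-fold lower, 1.45 to 1.79). Its level in the second library of each pair was thus the lower one. PFKFB2, a form expressed in heart, differed in neither pair beyond counting error, with levels of 19.2 in both tumors. TIGAR, a p53-induced phosphatase, was at 15.9 and 20.5 in the tumors, with an interval of 0.992 to 1.66.

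**Figure D3:**
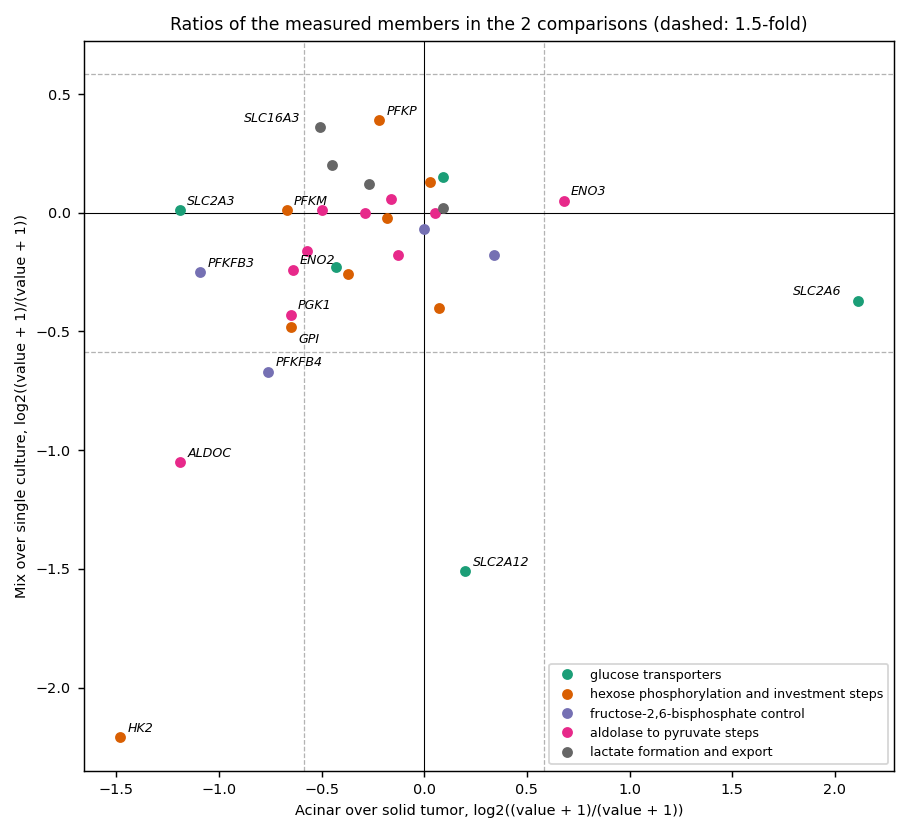
Log2 ratio of acinar over solid tumor (x axis) against mix over single culture (y axis) for the 31 measured members, 1 point each, colored by role. Dashed lines mark 1.5-fold. HK2, ALDOC and PFKFB4 lie past the lines on the lower side of both, SLC2A6 stands apart on the right at 2.11, and SLC2A12 lies low only on the y axis, at -1.51.

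From aldolase to pyruvate, ALDOC showed the lowest ratio in each pair. It was at 35.9 in the solid and 15.2 in the acinar tumor (2.37-fold lower, 1.87 to 3.02), and at 229 and 110 in the single and mix cultures (2.08-fold lower, 1.95 to 2.22). Both tumors lay below both cultures. ALDOA, the main aldolase, was at 2859 and 2024 in the tumors (1.41-fold lower, 1.38 to 1.44) and at 2494 and 2518 in the cultures, where the interval held equality. TPI1, triosephosphate isomerase, followed the same pattern, at 853 and 698 in the tumors and at 1107 and 1110 in the cultures.

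GAPDH, the dehydrogenase often used as a reference gene, was at 8306 in the solid and 5592 in the acinar tumor, a 1.49-fold lower level (1.47 to 1.5). In the cultures it was at 7625 and 6847, 1.11-fold lower with fibroblasts (1.10 to 1.12). PGK1, the first ATP-forming kinase of the pathway, was at 1347 and 859 in the tumors (1.57-fold lower, 1.52 to 1.62) and at 2695 and 1998 in the cultures (1.35-fold lower, 1.33 to 1.37). PGAM1, phosphoglycerate mutase, was at 38.3 and 34.9 in the tumors and at 89.5 and 79.1 in the cultures.

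The enolase genes split by form. ENO1, the general form, was at 2592 and 2322 in the tumors and 3736 and 3902 in the cultures. ENO2, the neuronal form, was at 359 in the solid and 231 in the acinar tumor (1.56-fold lower, 1.46 to 1.66), and at 227 and 191 in the cultures. The solid tumor was the high library for ENO2, and the other 3 lay within 231 and 191. ENO3, the muscle form, was higher in the acinar tumor, at 19.2 against 11.6 (1.66-fold, 1.24 to 2.21). PKM, pyruvate kinase, was nearly level within each pair, at 4249 and 4403 in the tumors and at 7987 and 7994 in the cultures.

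Of the 4 genes of lactate formation and export, LDHA, LDHB and SLC16A3 were lower in the acinar tumor and higher in the mix culture, none past 1.5-fold. LDHA was at 1797 in the solid and 1490 in the acinar tumor (1.21-fold lower, 1.17 to 1.24), and at 2678 and 2901 in the cultures (1.08-fold higher with fibroblasts, 1.07 to 1.10). LDHB was 1.37-fold lower in the acinar tumor (1.31 to 1.43) and 1.15-fold higher in the mix culture (1.12 to 1.18). SLC16A3, encoding the lactate exporter MCT4, was at 397 and 279 in the tumors (1.42-fold lower, 1.34 to 1.51) and at 470 and 604 in the cultures (1.28-fold higher, 1.24 to 1.33). SLC16A1, encoding the carrier MCT1, had intervals that held equality in both pairs. The difference between the pairs was not tested for any of these genes.

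Several of these steps have more than 1 gene, so levels were also compared per kilobase of transcript, using the longest principal protein-coding transcript of each gene in GENCODE release 29. Among the 6 transporters, SLC2A1 made up 81.2% and 76.2% of the scaled counts per kilobase in the solid and acinar tumors, and 56.8% and 57.0% in the single and mix cultures. SLC2A6 took 1.72% in the solid tumor and 10.3% in the acinar tumor, and 14.4% and 13.0% in the cultures. Of the hexokinases, HK1 held between 48.0% and 64.1%, HKDC1 between 27.6% and 43.2%, and HK2 11.7%, 4.08%, 8.07% and 1.91% in the order solid, acinar, single and mix. With the union of exons as length, HKDC1 came above HK1 in both tumors (45.4% against 41.8% in the solid and 49.1% against 46.3% in the acinar one). HK2 was a minor form by either length.

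PFKP led the phosphofructokinases in all 4 libraries, with 61.4% to 72.4%, and of ALDOA and ALDOC, ALDOA held 93.1% to 99.4%. ALDOC reached 6.91% and 3.42% of their sum in the single and mix cultures. ENO2 took 10.2% of the enolases in the solid tumor and between 3.88% and 7.53% in the other libraries. LDHA and LDHB were expressed side by side, LDHA at 57.9% to 63.6%. On the per-kilobase scale PGAM1 stood at 19.1 to 48.9, against 2983 to 4430 for GAPDH, in the same pathway. PGAM1, GAPDH and others of these genes have near-identical copies in the genome, so how fragments were assigned between them is uncertain.

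**Figure D4:**
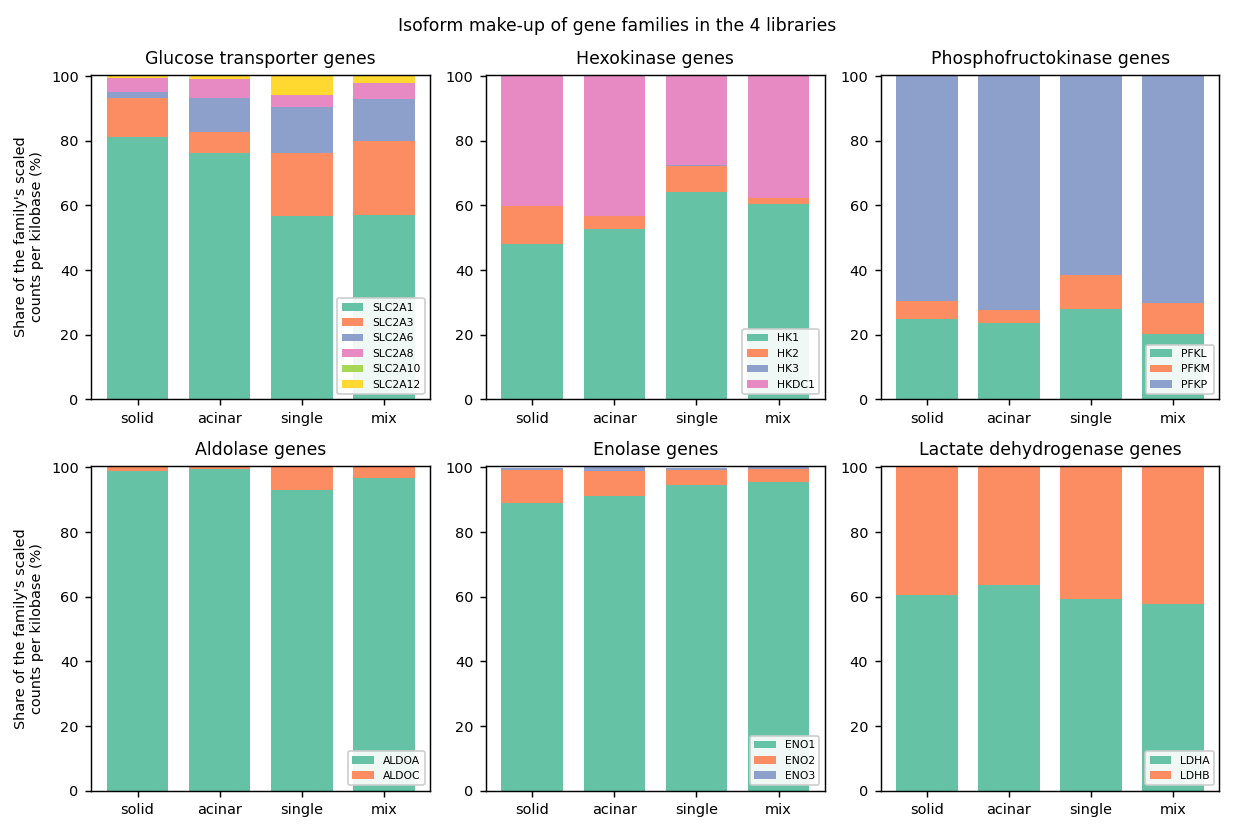
Share of each gene in its family's scaled counts per kilobase (y axis, percent; stacked bars) in the 4 libraries, for 6 families. SLC2A6 widens from 1.72% in the solid to 10.3% in the acinar tumor, and HK2 narrows from 11.7% to 4.08% between the tumors and from 8.07% to 1.91% between the cultures.

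Promoters were examined for the members that stood apart. HK2, ALDOC and PFKFB4 were the lower ones within each pair, in the acinar tumor and in the mix culture. For ALDOC and PFKFB4 the mix culture was still above the solid tumor (110 against 35.9 and 48.0 against 32.0). SLC2A6 went the other way between the tumors. RefSeq windows (build GRCh38.p14) were found for 30 members. The others are SLC2A3, PFKFB2 and SLC16A1. The 250 bases before each start were searched on both strands for ACGTG and GCGTG, the core letters of hypoxia response elements. A CACGTG, the E-box bound by MYC and other factors, holds ACGTG on both strands. These genes were picked after their values were seen. The matches are shown 5′ to 3′ on the gene's strand with 9 bases on either side, the core letters of either strand in capitals.
HK2, chr2:74833889-74833911, plus strand: cacggaccaCACGTcccatctca
HK2, chr2:74834063-74834092, plus strand: agccaatggGCGTGcgCACGTcactgatcc
ALDOC, chr17:28577121-28577144, minus strand: agtgcccggCACGTGgtaaaggga
ALDOC, chr17:28576990-28577012, minus strand: cctctgaggGCGTGgtcttgccc
ALDOC, chr17:28576910-28576932, minus strand: cggaggagtCACGTagctctgcg
PFKFB4, chr3:48556956-48556978, minus strand: gttgggcatGCGTGgtcggaggc
SLC2A6, chr9:133479276-133479298, minus strand: tgtcttgggGCGTGaccttcggg
SLC2A6, chr9:133479180-133479202, minus strand: cattggccgGCGTGtctctgcag

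The HK2 window shown is the more upstream of 2, the other holding 6 matches, and its paired cores start 55 and 48 bases before the start site. ALDOC has a further GCGTG core, on the opposite strand 45 bases before its start, and SLC2A6 has a further one 172 bases before. SLC2A6, which was higher in the acinar tumor, and PFKFB4, which was lower, both hold GCGTG and no ACGTG. Of 58 windows of members, 19 (32.8%) held ACGTG and 17 (29.3%) GCGTG. Among 15524 windows of genes at 1 scaled count or more, the shares were 22.0% and 42.4%. Either core was in 51.7% of the members' windows and in 54.0% of those of the expressed genes. CACGTG was in 10.3% and 8.05%. Windows of 1 gene can overlap, and a match describes letters, not binding.

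Across the settings, the members were mostly lower in the tumors than in the cultures. Of 31 genes, 24 had both tumors below both cultures and 3 (SLC2A1, SLC2A8 and ENO2) had both above, against 38.7% and 39.8% of 14561 genes. HK2, ALDOA, GAPDH and ENO3 overlapped between the settings. At 2-fold, 5 members were below in every pairing (SLC2A12, PFKM, PGM1, ALDOC and PGAM1), against 8.22% of all genes, and 0 were above, against 9.67%. ALDOC differed most, its lower culture level being 3.06-fold above its higher tumor level. SLC2A12 and PFKM followed, both at 2.55-fold. The tumor cells were cut from tissue and the cultured cells were sorted, so setting and preparation cannot be told apart.

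Genes of neighbouring routes were taken from lists of pathway genes. Of 14 hypoxia-induced genes outside glycolysis, 8 were at or past 1.5-fold lower in the acinar tumor, against 8.07% of all genes, and 2 in the mix culture, against 6.83%. Of this list, 0 were higher in either, against 6.34% and 3.31% of all genes. CA9, the hypoxia-induced carbonic anhydrase, was at 127 in the solid and 17.8 in the acinar tumor (7.10-fold lower, 5.84 to 8.69), and at 295 and 215 in the cultures. Of 16 regulators of glycolytic transcription, 2 were lower between the tumors and 0 higher, and 4 were lower and 1 higher between the cultures, to be read against the same shares of all genes. HIF1A itself was at 123 and 121 in the tumors and 599 and 759 in the cultures, though its fragments were fractional in all libraries. EGLN3, a HIF prolyl hydroxylase that is itself induced by hypoxia, was 2.67-fold lower in the acinar tumor (2.42 to 2.96). EPAS1, encoding HIF-2α, was at 222 and 457 in the single and mix cultures (2.06-fold higher, 1.96 to 2.16), and at 102 and 89.9 in the solid and acinar tumors (1.13-fold lower, 1.02 to 1.27). MYC was at 56.8 and 49.5 in the tumors and 59.8 and 73.5 in the cultures.

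Past pyruvate, kinases switch off pyruvate dehydrogenase, and 2 of their 4 genes were past 1.5-fold lower in the acinar tumor. PDK1 was at 30.9 and 15.3 in the tumors (2.01-fold lower, 1.58 to 2.58) and at 36.6 and 23.9 in the cultures (1.53-fold lower, 1.32 to 1.78). PDK4 was 1.83-fold lower in the acinar tumor (1.65 to 2.02). In all, 2 of 12 genes of the complex and its regulators were at or past 1.5-fold lower there (8.07% of all genes) and 1 in the mix culture (6.83% of all genes). No gene of the pentose phosphate pathway, of 8 measured, was past 1.5-fold in either direction in either comparison. Among all genes, 8.07% were lower and 6.34% higher between the tumors, and 6.83% and 3.31% between the cultures. With only 8 genes, this result does not set the pathway apart from all genes. BSG, the chaperone of the lactate carriers, was at 837 and 640 in the tumors and 1219 and 1277 in the cultures, the same pattern of levels as LDHA.

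**Figure D5:**
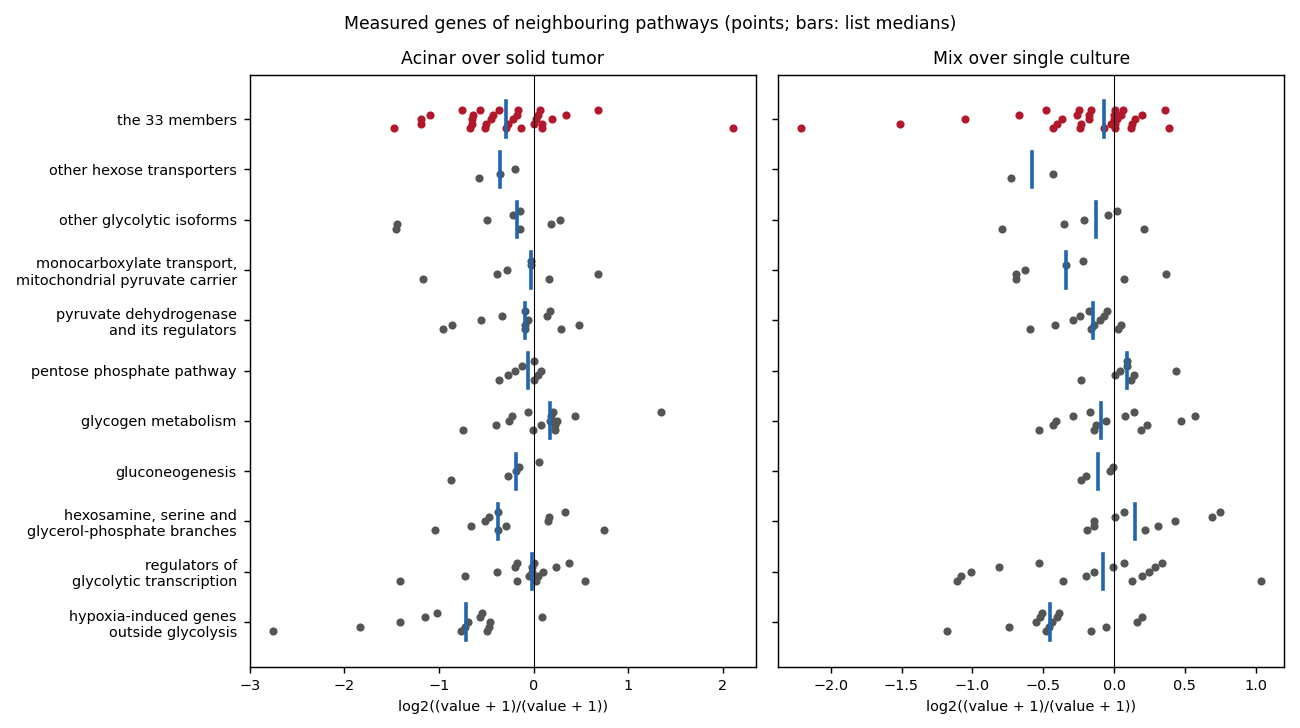
Log2 ratios (x axis) of the measured genes of the 33 members (red) and of each list of neighbouring routes (gray), with list medians as blue bars, for acinar over solid tumor (left) and mix over single culture (right). The hypoxia list has the lowest median in the tumors, -0.71. In the cultures, the other hexose transporters (2 genes) and the hypoxia list (-0.45) are lowest.

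Markers of other cells were checked beside these ratios. The 13 fibroblast markers summed to 59.9 and 96.1 scaled counts in the solid and acinar tumors, and to 44.9 and 47.2 in the single and mix cultures, with POSTN and PDPN at 0 in all. LUM made most of the difference between the tumors, at 19.6 and 55.4 (2.83-fold higher in the acinar tumor, 2.32 to 3.46), FAP was at 0.420 and 2.17, and COL1A1 was at 32.3 and 30.7. In the mix culture the fibroblast genes COL1A2 and PDGFRB were at 0.161, against 0 and 0.178 in the single culture, and DCN was at 0. Of the 4 fibroblast markers measured between the cultures, 2 were higher with fibroblasts and 2 lower. COL1A1 was at 29.5 with fibroblasts and 19.3 without, and THY1 at 2.01 and 1.33. ACTA2, with fractional fragments, was at 13.3 and 21.4 in the same order, and PDGFRA at 1.13 and 1.96. The intervals of THY1 and PDGFRA held equality. The 9 leukocyte markers summed to 239 and 146 in the tumors and 49.9 and 44.0 in the cultures, most of it CD68 (175, 113, 29.5 and 26.8), and AIF1 was at 0 in all. The 8 endothelial markers summed to at most 1.68 and the 10 erythroid and muscle markers to at most 4.48. The library titles do not say whether human fibroblasts were implanted with the tumor cells. Stromal cells that came from the host are mouse cells, and the table is of human symbols. How many mouse fragments of conserved genes such as GAPDH were counted under them, and what part these markers have in the ratios, was not tested. Fewer cells of a type and less RNA per cell cannot be told apart in such bulk libraries.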

How the data were processed

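The authors deposited 1 table with a signal per gene and library, called a raw signal per the file headers. Per the submitters' processing notes, build hg19 and the tools Cuffdiff 2.2.1, TopHat2 2.0.13, SAMtools 1.0 and Bowtie2 2.2.3 were used, with no role given. No source used here gives the annotation, filters or strand setting. In each library 90.1% to 91.2% of values above 0 were whole multiples, within 0.05 fragments plus the rounding of the deposited digits, of 1 step, taken as the value of 1 fragment. The rest were fractional, so no count model was used.

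All libraries were divided by 8.94, which brings their mean total to the CPM scale and keeps the authors' scaling between them; the results are called scaled counts. Depth was 6632976 to 12184274 fragments. Ratios were log2((value + 1)/(value + 1)) over genes at 1 scaled count or more in either library of a pair. Printed folds are plain ratios, with exact conditional binomial (Clopper-Pearson) intervals on whole fragments. No molecular identifiers are recorded, so fragments are not independent molecules and the intervals cover counting error only. The ratio and interval code was tested on simulated data. Python 3.11.15, pandas 2.3.3 and SciPy 1.17.1 were used. Every member could be named. Beyond them, up to 3 genes per list past 1.5-fold in either comparison, a few key genes and some further markers of cell types were named. The members and lists were chosen with earlier results of these data known. Some genes that this rule names are not reported here. Alternatives covered the pseudocount, the filter, the scaling and whole fragments.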

Additional observations from a re-analysis of the deposited data

Results flagged for a closer look

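PHGDH, the first enzyme of the serine branch that leaves glycolysis, differed in opposite directions past 1.5-fold in the 2 comparisons. It was at 2.66 scaled counts in the solid and 0.775 in the acinar tumor, and at 21.6 and 37.0 in the single and mix cultures. The acinar log2 ratio minus the mix ratio was -1.79, and this difference was not tested. The tumor values rest on 19 and 5 fragments, so their fold of 3.43 has a counting interval of 1.24 to 11.7. None of the 31 measured members differed this way. No share of all genes is given for this rule, so that count does not set PHGDH apart from the members.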

How the results depend on the processing

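With 1 library per group, leaving out a library was not possible. No paired analysis was possible because each group holds 1 library and the labels carry no replicate numbers. Under the 8 alternatives tried, the counts and medians of the members held within 1.5 times or 0.1 log2, with exceptions only at a pseudocount of 5. There, the members at or past 1.5-fold higher in the acinar tumor numbered 1 instead of 2, and those with both tumors past 2-fold from both cultures 3 instead of 5. Members at or past 1.5-fold lower numbered 9 or 10 between the tumors and 4 between the cultures under each alternative. The background moved more with the pseudocount: at 5, the genes at or past 1.5-fold lower were 3.02% (tumors) and 2.62% (cultures), against 8.07% and 6.83%. At 2-fold lower they were 0.723% and 0.541%, and with a pseudocount of 0.1 they were 4.95% and 3.87%, against 2.55% and 1.74%. Higher genes at 1.5-fold were 3.10% and 1.42% at a pseudocount of 5, against 6.34% and 3.31%. At 2-fold, higher genes were 0.816% and 0.245% at a pseudocount of 5, and 3.42% and 1.42% at 0.1, against 1.98% and 0.682%. No scaling moved the median of all genes past 0.1 log2. Of the members' ratios recomputed with another pseudocount or scaling, 301 moved by less than 0.1 log2, 9 moved by more, and none past 1.5-fold changed sign.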

Other observations

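Beyond the members, TXNIP, ARRDC4 and MPC1, from the lists of neighbouring routes, were past 2-fold higher in both tumors than in both cultures. Of all genes, 9.67% were past 2-fold that way and 8.22% the other way. PSAT1 and TKT, described next, went the other way. Setting and preparation cannot be told apart here either. TXNIP, an inhibitor of glucose uptake that is induced by glucose, was at 141 and 144 scaled counts in the solid and acinar tumors, and at 3.82 and 1.29 in the single and mix cultures. Its lower tumor level was 37.0-fold above its higher culture level. Its relative ARRDC4 was at 7.41, 9.92, 1.51 and 0.161 in the same order. MPC1, a subunit of the mitochondrial pyruvate carrier, was at 33.7 and 27.6 in the tumors and at 7.11 and 4.03 in the cultures.

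In the serine branch, PSAT1 was at 12.6 and 8.84 in the tumors and 124 and 169 in the cultures (chosen after its values were seen), the same order of settings as PHGDH. In the pentose phosphate pathway, TKT was at 724 and 665 in the tumors and 1855 and 1901 in the cultures (also chosen after its values were seen). Of the 8 measured genes of this pathway, both tumors were below both cultures for 6 and above both for 2. Among all genes the shares were 38.7% below and 39.8% above. PGM2L1, a phosphoglucomutase relative that makes sugar bisphosphates, was 2.58-fold higher in the acinar than in the solid tumor (2.31 to 2.88) and 1.51-fold higher in the mix than in the single culture (1.29 to 1.76). GFPT2, an entry enzyme of the hexosamine branch, was also higher in both, by 1.69-fold (1.5 to 1.90) and 1.62-fold (1.51 to 1.74).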
